A study of Mus musculus with 16 samples.

Results

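The HSP70 and HSP90 chaperones were followed as 10 genes in mouse testis RNA: Hspa2, Hspa4l, Hspa1l, Hspa1a, Hspa1b, Hsp90aa1, Hsp90ab1, Hspa8, Hspa5 and Hspa9. They were chosen by gene name, and each matched 1 of the 55414 genes in every table. The labels give testes of control mice, Cre control mice and Ythdc2 conditional knockout mice (cKO), all given tamoxifen at 10 mg/ml on postnatal days 12 and 13, and taken at postnatal day 14 (P14) or 16 (P16). The libraries of the control mice are named WT in their descriptions. Ythdc2 encodes an RNA helicase of meiotic germ cells, and tamoxifen is commonly used to switch on an inducible Cre recombinase. The labels do not name the Cre driver, the strain or whether animals were pooled, so the cells in which Ythdc2 was removed cannot be given.

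There were 2 control libraries per stage, 2 libraries of Cre control at P14 and 4 at P16, and 3 cKO libraries per stage. Controls and cKO libraries 1 and 2 were depleted of ribosomal RNA with Ribo-Zero components ("the first kit"), and Cre controls and cKO library 3 with the NEBNext kit ("the second kit"). Reads on genes ranged from 22220565 to 27531529 with the first kit and from 14494867 to 23200252 with the second. The labels do not say that replicates came from separate animals, so p-values measure only the spread between these libraries. Ythdc2 itself was lower in every cKO library than in every control in all 4 tables, with log2 changes of -1.60 (SE 0.09) at P14 and -2.34 (SE 0.06) at P16 against control. Of the cell type markers searched, those of spermatogonia, early meiotic prophase, Sertoli, peritubular and endothelial cells and macrophages were all detected in each group, while Insl3 of Leydig cells and Acrv1 of late spermatocytes were at 0 in all Cre control libraries at P16.

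HSP70 proteins bind unfolded stretches of other proteins and release them in a cycle driven by ATP, which HSP40 proteins start and nucleotide exchange factors end. HSP90 proteins act later, on nearly folded clients such as kinases and steroid receptors, with a set of co-chaperones of their own. Some forms of the HSP70 family are made mainly, or at high level, in male germ cells. HSPA2 is needed to take apart the synaptonemal complex and to complete male meiosis. HSPA1L is a germ cell form, and HSPA4L is an exchange factor of the HSP110 class found at high level in testis. Hspa2, Hspa1l and Hspa4l are called the spermatocyte forms here. HSPA8 is the constitutive form of the cytosol, HSPA5 (BiP) that of the endoplasmic reticulum and HSPA9 (mortalin) that of mitochondria, while Hspa1a and Hspa1b are the classic heat-inducible genes. Of the HSP90 pair, HSP90AB1 is the constitutive and HSP90AA1 the inducible form, and the latter is also needed in male meiosis.

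The promoters of 3 members are shown because these genes stand for the patterns in the data: Hspa5, the member that fell in cKO, Hspa2, which rose most with age, and Hspa1a, a stress form that was low throughout. Each line gives the 250 bases before the RefSeq transcription start on GRCm38.p6, read 5′ to 3′ along the gene, with motif matches in capitals.
Hspa5: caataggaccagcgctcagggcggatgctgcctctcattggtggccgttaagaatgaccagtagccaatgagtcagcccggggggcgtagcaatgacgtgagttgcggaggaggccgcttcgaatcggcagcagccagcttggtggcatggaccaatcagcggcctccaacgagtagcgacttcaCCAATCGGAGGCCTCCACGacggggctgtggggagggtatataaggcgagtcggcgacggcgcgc
Hspa2: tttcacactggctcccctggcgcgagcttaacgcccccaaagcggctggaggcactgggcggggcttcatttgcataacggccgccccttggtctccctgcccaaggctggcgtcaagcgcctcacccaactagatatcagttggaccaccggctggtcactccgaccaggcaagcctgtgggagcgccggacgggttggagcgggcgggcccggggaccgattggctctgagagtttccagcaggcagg
Hspa1a: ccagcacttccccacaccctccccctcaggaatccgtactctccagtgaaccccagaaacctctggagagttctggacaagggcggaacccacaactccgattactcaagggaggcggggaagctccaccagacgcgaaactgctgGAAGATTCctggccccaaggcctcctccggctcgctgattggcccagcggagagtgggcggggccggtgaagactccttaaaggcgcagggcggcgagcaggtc
The windows lie at chr2:34771840-34772089 on the plus strand, chr12:76404120-76404369 on the plus strand and chr17:34972157-34972406 on the minus strand. The capitals in Hspa5 mark a match to the endoplasmic reticulum stress response element, CCAAT followed after a fixed spacer by CCACG, which lies 65 to 47 bases before the start. Of 32851 RefSeq promoter windows of that length, 0.113% hold this motif on either strand. In Hspa1a the capitals mark GAAGATTC, a match to the heat shock element GAANNTTC, 104 to 97 bases before the start, and Hspa1b holds the same match at the same distance. That motif is in 6.69% of windows. The 2 other motifs searched on both strands were the heat shock element TTCNNGAA (7.17% of windows) and the cyclic AMP response element TGACGTCA (1.55%). Neither was found in any of the 6 members searched, which also include Hspa4l and Hspa1l. The Hspa2 window holds none of the 4 motifs. The windows of Hspa1a and Hspa1b differ at 3 of 250 bases, and the starts of Hspa1a and Hspa1l lie 547 bases apart on opposite strands.

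Transcript levels spanned 3 orders of magnitude, with HSP90 transcripts at the top and Hspa1l at the bottom. Levels are CPM, the reads of a gene scaled to a common library total within a kit, divided by the length of the longest annotated transcript in kilobases. In control testis at P14 the order was Hsp90ab1 at 646 ± 8.66 (SD, n = 2), Hsp90aa1 at 476, Hspa8 at 395, Hspa5 at 331, Hspa2 at 165 ± 15.5 (SD, n = 2), Hspa9 at 123, Hspa4l at 38.9, Hspa1b at 4.51, Hspa1a at 2.81 and Hspa1l at 0.399. Each neighbour in this order was separated from the next in both libraries. At P16 Hsp90aa1 and Hsp90ab1 overlapped at 581 and 575, and so did Hspa5 and Hspa8 at 339 and 338, while Hspa2 stood just below them at 291. In cKO at P16 Hspa2, at 302 and 342, lay above Hspa5, at 274 and 262, whereas in control it lay below. Where 2 genes stand close, the order depends on the length used: per kilobase of all exons joined, Hspa8 in control at P16 was at 248, below Hspa2 at 278. The longest annotated transcript of Hspa8 has 3158 bases and its longest protein-coding one 2394. Per kilobase of the latter, Hspa8 would stand higher than given here.

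**Figure D1:**
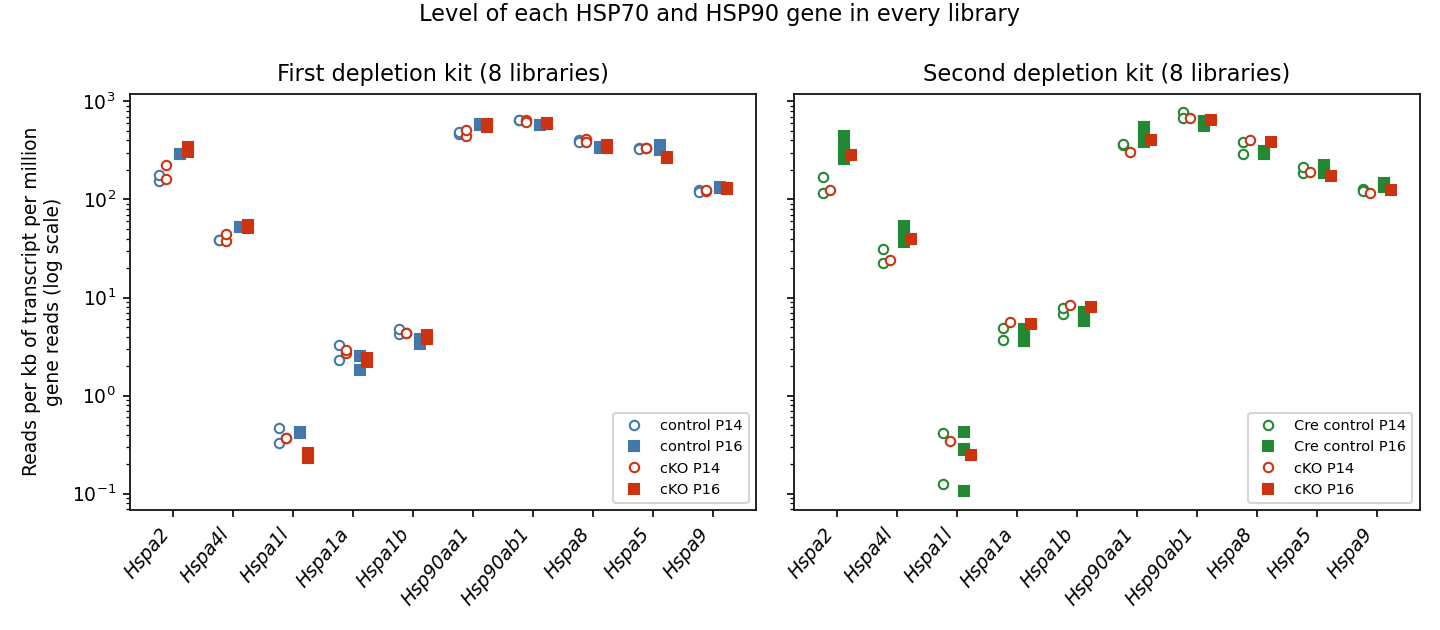
Level of each of the 10 genes (CPM per kilobase of transcript, log axis) in every library of the first kit (left) and the second kit (right), with open circles for P14, filled squares for P16 and a colour per genotype. Hspa2 and Hspa4l sit higher at P16 than at P14 in every genotype, and Hspa1l lies lowest of the 10 throughout.

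Several members share sequence with other genes, which bears on their levels, because the files keep reads that map to several places in a summary row apart from the genes. Of the 75-base windows of the transcript, 68.6% were shared with other genes for Hspa8, 61.7% for Hspa1a, 55.8% for Hspa1b and 53.1% for Hsp90aa1, against none for Hspa2 and Hspa5. The levels of the first 4 are therefore uncertain, and Hspa1a and Hspa1b cannot be fully told apart. Of the Hspa1l windows, 71.1% also belong to Gm10501, a gene annotated on the opposite strand. Exons of Hspa1a overlap Gm20481, also on the opposite strand. Those of Hspa8 overlap small nucleolar RNA genes on the same strand. The strand setting of the counting is not given in the sources used here.

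Among the spermatocyte forms, Hspa2 and Hspa4l rose between P14 and P16 in control, cKO and Cre control testis alike, and Hspa1l did not pass the test. In CPM, Hspa2 stood at 389 and 444 in the control libraries at P14 and at 733 and 735 at P16. The stages did not overlap, and the log2 change was 0.82 (SE 0.13, limma adjusted p 0.00202), a 1.77-fold rise. In cKO the values were 404 and 563 at P14 and 763 and 864 at P16, again without overlap, a log2 change of 0.77 (limma adjusted p 0.00187, SE 0.13). Cre controls went from 296 and 423 to 661, 767, 918 and 1132, a log2 change of 1.27 (limma adjusted p 0.00263, SE 0.20). The third cKO library held 313 at P14 and 718 at P16, 1 library per stage with no test. Both Cre control libraries at P14 and library 1 at P16 came from one sequencing run and libraries 2 to 4 at P16 from another, so age and run are largely confounded in every Cre control comparison of the stages. Within the shared run Hspa2 stood at 1132 at P16 against 296 and 423 at P14, without a test. Leaving out Cre control P14 library 1 gave 1.01 with a limma adjusted p of 0.0725.

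Hspa4l followed the same course at a smaller size. Its CPM were 368 and 370 in control at P14 and 492 and 501 at P16. The stages did not overlap, and the log2 change was 0.43 (SE 0.07, limma adjusted p 0.00169). Values in cKO were 360 and 418 at P14 and 490 and 526 at P16, a log2 change of 0.39 (limma adjusted p 0.00188, SE 0.07). Among Cre controls the stages were 212 and 298 against 350, 391, 464 and 507, also without overlap, with a log2 change of 0.75 (limma adjusted p 0.0137, SE 0.16). Within the shared run the values were 507 at P16 against 212 and 298 at P14. The call was lost without Cre control P14 library 1 (0.51, limma adjusted p 0.212) and without Cre control P16 library 3 (limma adjusted p 0.0630).

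Hspa1l was close to the limit of these libraries, with 5 to 29 reads in each. Controls held 18 and 26 reads at P14 and 26 and 29 at P16, and the 95% exact Poisson interval of a single library, 17.0 to 38.1 for 26 reads, covers all 4. The log2 change with age was 0.11 (95% interval -0.52 to 0.73), so no change was detectable at this depth. Intervals of this kind cover counting error only.

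The rise of Hspa2 and Hspa4l went together with the markers of spermatocytes past early prophase. In control testis 18 of 18 tested markers of pachytene and later stages rose, with a median log2 change of 1.44, and their summed CPM went from 988 to 1051 at P14 to 2209 to 2263 at P16. In cKO 17 of 18 rose, with summed CPM of 948 to 1373 and 2414 to 2682, and in Cre controls 16 of 18, with 688 to 867 and 1650 to 3039. Markers of Sertoli cells (7 of 14), macrophages (8 of 10) and peritubular cells (4 of 5) fell with age in control testis. Over all genes, 20% were called with age in control, 29.8% in cKO and 11.8% in Cre controls. In whole testis RNA, more cells of a type and more RNA per cell cannot be told apart. The part of these markers in the rise was not tested.

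**Figure D2:**
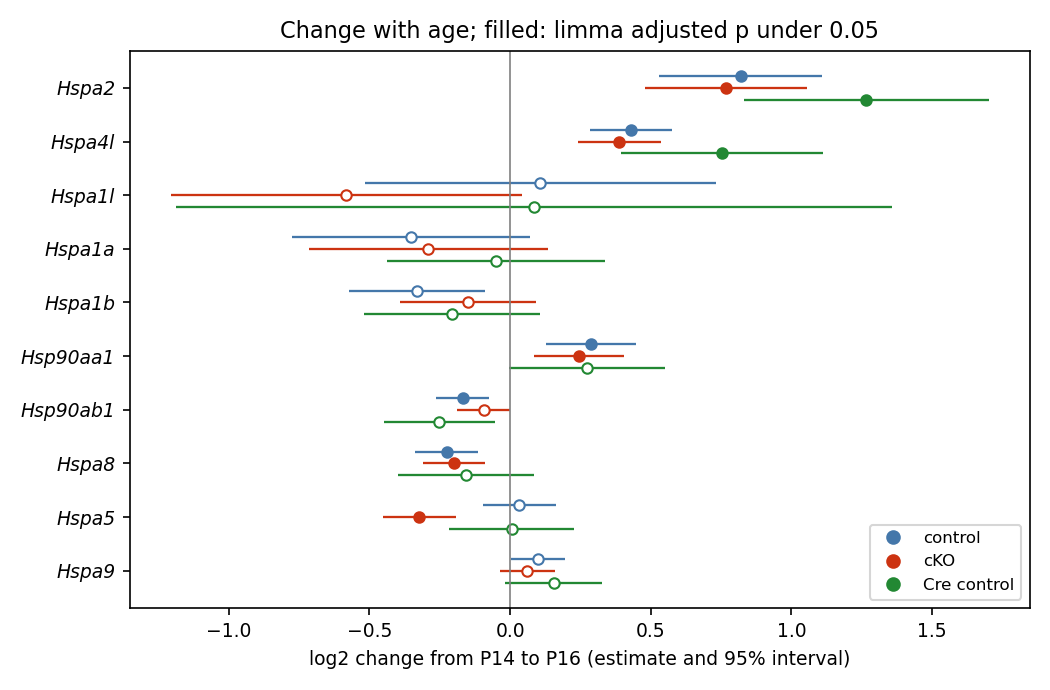
Log2 change from P14 to P16 with its 95% interval for each gene in control (blue), cKO (red) and Cre control testis (green), with filled points for a limma adjusted p under 0.05. Hspa2 and Hspa4l lie to the right of 0 in all 3 genotypes, and Hspa5 lies to the left in cKO and near 0 in both kinds of control.

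Of the stress forms, the heat-inducible pair was low at both ages and did not pass the test, and Hsp90aa1 rose a little. Hspa1a had 6.89 and 9.77 CPM in control at P14 and 5.47 and 7.54 at P16, which overlap. The corresponding values of Hspa1b were 11.8 and 13.5 at P14 and 10.7 and 9.39 at P16, which do not. Its log2 change of -0.33 (SE 0.11) missed the threshold (limma adjusted p 0.0576), and that of Hspa1a was -0.35 (95% interval -0.77 to 0.07). Hsp90aa1 went from 1520 and 1600 CPM to 1941 and 1869, a log2 change of 0.29 (limma adjusted p 0.0197, SE 0.07), and in cKO from 1453 and 1694 to 1779 and 1942, a change of 0.24 (SE 0.07, limma adjusted p 0.0287). Leaving out any 1 of the 4 control libraries raised the adjusted p of the control rise above the threshold (0.0501 to 0.138). In Cre controls Hsp90aa1 was not called (0.27, limma adjusted p 0.191). In cKO the call was lost without P14 library 1 (0.12, limma adjusted p 0.168), P16 library 1 (0.0570) or P16 library 2 (0.198).

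Among the general forms, Hspa8 and Hsp90ab1 fell with age in control testis. Hspa8, the constitutive cytosolic HSP70, fell from 1269 and 1228 CPM in control at P14 to 1078 and 1058 at P16, a log2 change of -0.23 (limma adjusted p 0.0110, SE 0.05). Its values in cKO were 1304 and 1205 at P14 and 1123 and 1063 at P16, a change of -0.20 (SE 0.05, limma adjusted p 0.0140). Hsp90ab1 fell in control from 1643 and 1612 CPM to 1457 and 1439, a change of -0.17 (SE 0.04, limma adjusted p 0.0198). The ages did not overlap in these 3 cases. Hsp90ab1 was not called in cKO (-0.09, limma adjusted p 0.124). In Cre controls neither Hspa8 (-0.16, limma adjusted p 0.401) nor Hsp90ab1 (-0.25, limma adjusted p 0.0978) was called. The Hspa8 call in control was lost without P14 library 1 (limma adjusted p 0.0861), P16 library 1 (0.0679) or P16 library 2 (0.0913), and in cKO without P16 library 2 (0.0958). The Hsp90ab1 call was lost without any 1 of the 4 control libraries (0.0666 to 0.135). Hspa9 changed by 0.10 (SE 0.04, limma adjusted p 0.143) in control.

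Hspa5 fell with age in cKO and was not called in either kind of control. Controls had 1234 and 1198 CPM at P14 and 1324 and 1167 at P16, a log2 change of 0.03 (95% interval -0.10 to 0.16). In cKO it fell from 1218 and 1241 to 1005 and 962, a log2 change of -0.32 (limma adjusted p 0.00261, SE 0.06), and the stages did not overlap. Cre controls held 680 and 789 CPM at P14 and 685 to 830 at P16, a change of 0.01 (95% interval -0.22 to 0.23). The third cKO library held 708 at P14 and 631 at P16. Over the same interval in cKO, 10 of 16 markers of spermatogonia and 9 of 20 of early prophase fell, against 4 of 16 and 0 of 20 in control. Over all genes, 29.8% were called with age in cKO and 20% in control. The part of these markers in the fall of Hspa5 was not tested.

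By these counts, 5 of 10 members changed with age in control testis, where 20% of the 18581 genes tested were called. In cKO 5 of 10 changed, against 29.8% of all genes, and in Cre controls 2 of 10, against 11.8% of 18975 genes. Split by role, the median log2 change in control was 0.43 for the spermatocyte forms, -0.33 for the stress forms and -0.07 for the general forms, beside -0.01 over all genes. The same medians were 0.39, -0.15 and -0.15 in cKO, beside 0.01, and 0.75, -0.05 and -0.08 in Cre controls, beside -0.01. With 3, 3 and 4 genes in these classes, the medians are a description.

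The makeup of the chaperone pool shifted accordingly. Hspa2 made up 7.07% and 8.05% of the summed level of the 10 genes in control at P14 and 12.4% and 12.8% at P16. In cKO libraries of the same kit it made up 7.39% and 9.87%, then 13.3% and 14.8%. For each transcript of Hspa8 there were 0.383 and 0.452 of Hspa2 in control at P14 and 0.851 and 0.868 at P16, per kilobase, and in cKO 0.387 and 0.584, then 0.849 and 1.02. The ratio of Hsp90aa1 to Hsp90ab1 went from 0.71 and 0.762 to 1.02 and 0.997 in control. In Cre controls Hspa2 made up 6.23% and 8.46% at P14 and 13.3% to 19.6% at P16. The shared sequence of Hspa8 and Hsp90aa1 touches the size of these ratios. So does the length used for Hspa8, 3158 bases. With its longest protein-coding transcript, 2394 bases, the ratios of Hspa2 to Hspa8 and the shares of Hspa2 would be lower.

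**Figure D3:**
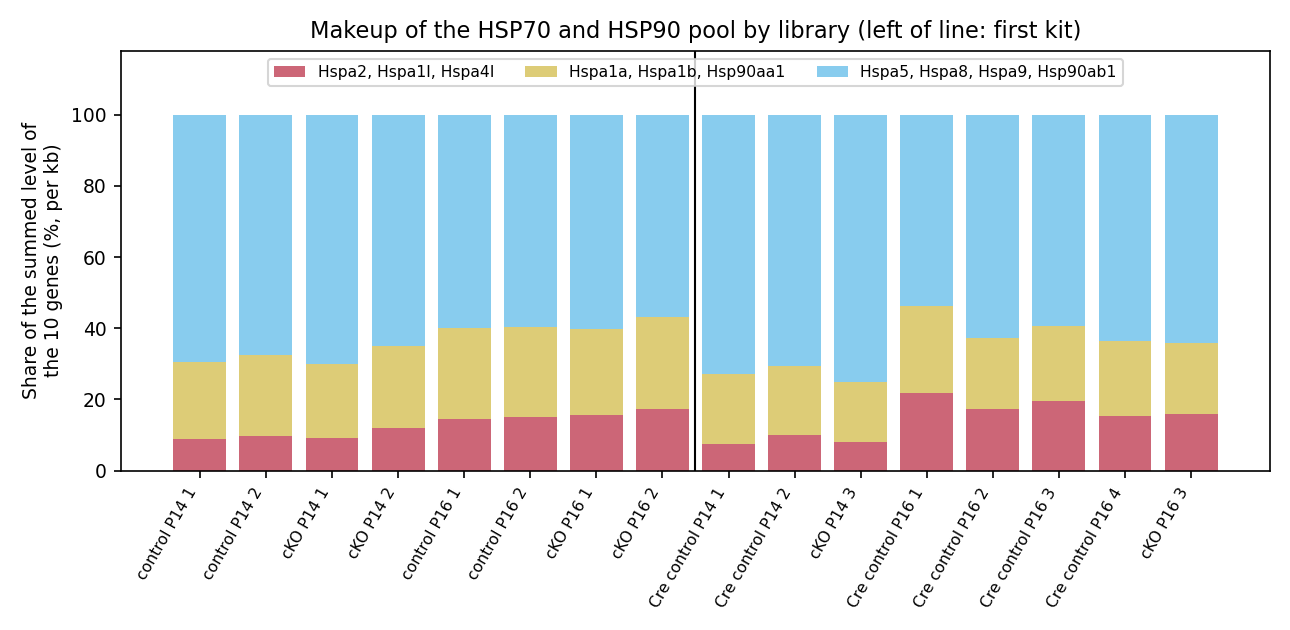
Share of the summed per-kilobase level of the 10 genes (percent, stacked bars reaching 100%) held by the spermatocyte forms (red), the stress forms (yellow) and the general forms (blue) in each of the 16 libraries. The red part grows from 7.43% to 11.8% at P14 to 14.6% to 21.9% at P16.

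At P14, the day after the last tamoxifen dose, no chaperone passed the test between cKO and control. Hspa2 had normalized counts of 9358 and 10749 in control and 9763 and 13625 in cKO, which overlap, and a log2 change of 0.20 (95% interval -0.16 to 0.56). Hspa5 had 29675 and 28971 in control and 29439 and 30014 in cKO, a change of 0.02 (95% interval -0.10 to 0.14). None of the 10 members was called by limma, edgeR or DESeq2, 0 of 10 had an unadjusted limma p under 0.05, and the groups overlapped for all 10. Among all genes 0.00579% were called, which was Ythdc2 alone. The 95% intervals of Hspa8, Hspa9 and Hsp90ab1 lay within -0.14 and 0.15, and that of Hspa1l reached from -0.79 to 0.65.

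At P16 Hspa5 fell in cKO, Hspa2 was slightly higher, and the other 8 members were not called. Hspa5 had normalized counts of 34438 and 30301 in control and 26084 and 24617 in cKO. Both cKO libraries lay below both controls, and the mean was 32369.8 ± 2925 (SD, n = 2) in control and 25350.2 ± 1038 (SD, n = 2) in cKO. The log2 change was -0.35 (SE 0.06, limma adjusted p 3.34e-04), a fall to 0.784 of the control level. It ranged from -0.44 to -0.26 over 14 alternatives, and the call was lost in 1 of them, the moderated test without a mean-variance trend (limma adjusted p 0.0869). Over both control types, with the kit as a covariate, the change was -0.30 and also passed. Across members, 2 of 10 were called where 38.6% of the 17986 genes tested were.

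Hspa2 had 19074 and 19076 in control and 19812 and 22101 in cKO. The cKO libraries lay above the controls, and the log2 change was 0.13 (SE 0.05, limma adjusted p 0.0464). This call was lost in 6 of 14 alternatives. Without cKO library 2 the change was 0.05 (limma adjusted p 0.285), without control library 1 or 2 the adjusted p was 0.210 or 0.204, and with both control types and the kit as a covariate the change was -0.044 (limma adjusted p 0.864). Hspa4l differed by 0.02 (95% interval -0.07 to 0.11), with 12795 and 13018 in control and 12735 and 13468 in cKO.

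Hspa1l had 26 and 29 reads in the P16 controls and 17 and 14 in cKO, normalized counts of 27.0 and 27.4 against 16.5 and 14.5. The groups did not overlap, but the log2 change of -0.78 (SE 0.30) was not called (limma adjusted p 0.0581). It passed the threshold in 3 of 12 alternatives, with limma adjusted p values of 0.0383 to 0.0489. The overlapping Gm10501 held 59 and 40 reads in control and 49 and 41 in cKO.

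The stress forms and the remaining general forms did not pass the test at P16. Hspa1a had 142 and 196 in control and 187 and 168 in cKO, and Hspa1b had 278 and 244 against 299 and 273. Both genes overlapped between the groups, with log2 changes of 0.09 (95% interval -0.24 to 0.42) and 0.13 (95% interval -0.10 to 0.36). The intervals of the abundant forms were narrower: -0.15 to 0.05 for Hsp90aa1, -0.05 to 0.13 for Hsp90ab1 and -0.07 to 0.11 for Hspa8. Hspa9 was lower in both cKO libraries, at 10023 and 10217 against 10333 and 10569, a change of -0.05 (SE 0.04, limma adjusted p 0.382). The Hsp90aa1 change of -0.05 became -0.10 and passed without cKO library 2 (limma adjusted p 0.0453). Median changes were 0.02 for the spermatocyte forms, 0.09 for the stress forms and -0.01 for the general forms, beside -0.000495 over all genes.

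**Figure D4:**
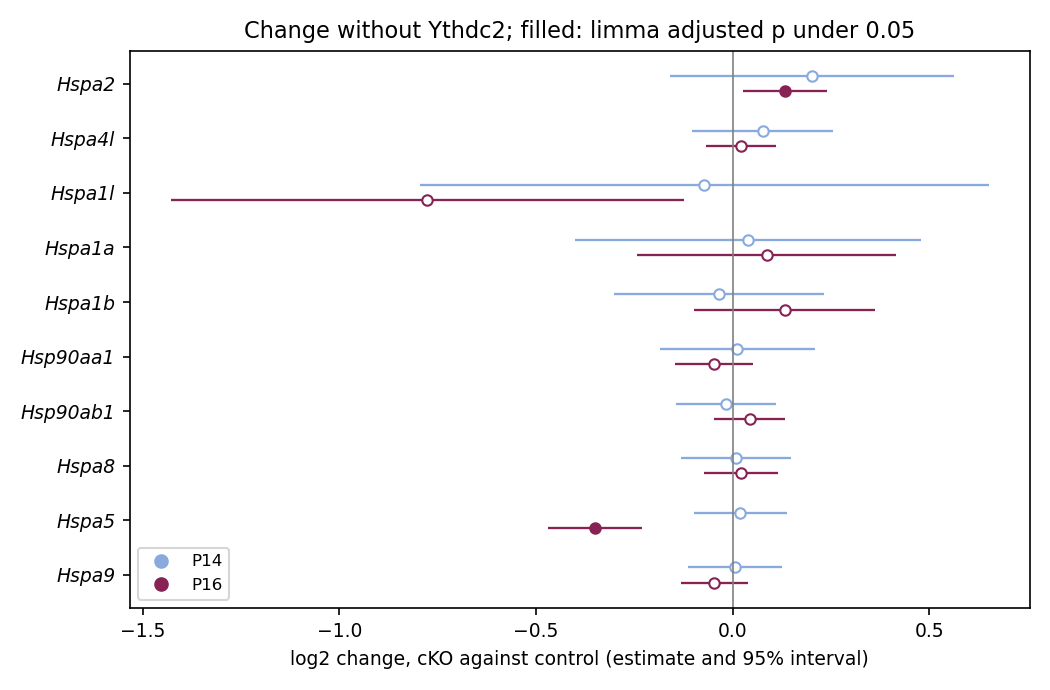
Log2 change of cKO against control with its 95% interval at P14 (light blue) and P16 (purple) for each gene, with filled points for a limma adjusted p under 0.05. Hspa5 at P16 lies at -0.35, clear of its P14 value of 0.02, and the widest bars belong to Hspa1l at both stages.

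Markers of several cell types differed between the P16 groups as well, in a comparison that called 38.6% of all genes. Lower in cKO were 18 of 20 markers of early prophase, with a summed CPM of 2597 to 2824 against 3612 to 3705 in control, and 11 of 15 markers of spermatogonia, with 785 to 787 against 988 to 994, while 2 of the 15 were higher. Higher were 10 of 14 Sertoli cell markers (5053 to 5531 against 4116 to 4331) and 9 of 10 macrophage markers (197 to 201 against 139 to 140). Pachytene and later markers were mixed, with 7 of 18 higher and 4 lower, and 3 of 7 Leydig, 1 of 5 peritubular and 2 of 4 endothelial markers were higher. Insl3, a defining Leydig marker, was at 0 in both cKO libraries. The part of these shifts in the Hspa5 and Hspa2 changes was not tested.

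The test of the difference between the stages called Hspa5 alone among the members, 1 of 10, where 7.39% of 18581 genes were called. Its cKO effect at P16 minus that at P14 was -0.36 on the log2 scale (SE 0.08, 95% interval -0.54 to -0.17, limma adjusted p 0.0325). The direction was the same in all 16 alternatives, but the call was lost in 7. Among these were leaving out control P14 library 1 (limma adjusted p 0.0746) or 2 (0.106), control P16 library 1 (-0.26, 0.118) and cKO P16 library 1 (0.0705) or 2 (0.0924). For Hspa2 and Hspa4l the difference was -0.05 (95% interval -0.46 to 0.36) and -0.04 (95% interval -0.25 to 0.17), so their rise with age was not shown to differ between control and cKO.

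Against Cre controls the 2 kits stood on different sides of the comparison, and cKO libraries 1 and 2 are the same as those compared with control. At P14 no gene was called by limma among 18196 (0% called), 705 genes had an unadjusted p under 0.05 and DESeq2 called 5. 0 of 10 members were called by limma, edgeR or DESeq2, and 0 of 10 had an unadjusted p under 0.05. Without cKO library 3, which leaves only first-kit cKO libraries, 4 members passed: Hspa5 (0.85), Hspa4l (0.73), Hsp90aa1 (0.49) and Hspa1b (-0.62). That fit called 6256 of 17924 genes, with kit and genotype inseparable. At P16, 1 of 10 members was called, Hspa8, against 9.07% of 19200 genes.

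Each kit was sequenced in runs of its own, so kit and run cannot be told apart. Hspa5 differed in cKO between libraries of the 2 kits. In the P16 table with Cre controls it had 16328, 13640.3, 14753 and 13556 in Cre controls, 21365 and 20294 in cKO libraries 1 and 2 and 12152 in cKO library 3. The first-kit cKO libraries lay above every Cre control and the second-kit one below every Cre control, so the log2 change of 0.26 (limma adjusted p 0.364) mixes both. Within the second kit, library 3 stood -0.26 from the mean of the 4 Cre controls and -0.43 from the Cre control of its own run. With the kit as a covariate the change was the same -0.26. Every first-kit library there is cKO, so that fit rests on library 3 alone and is not a second result. Without library 3 the change was 0.52 and passed (limma adjusted p 9.81e-04), with kit and genotype then inseparable. At P14 library 3, at 12880, lay between the Cre controls at 12489 and 14321.

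Hspa8 was higher in cKO than in Cre control at P16. Cre controls had 19275, 18972, 18362 and 18194 and cKO libraries 23885, 22418 and 23319, without overlap, a log2 change of 0.31 (limma adjusted p 0.0440, SE 0.07). The call was lost in 13 of 19 alternatives, among them leaving out each library but cKO library 3 (limma adjusted p 0.0862 to 0.204). Within the first kit the change was 0.02 (SE 0.04), and within the second kit library 3 stood 0.32 above the Cre control mean. Gm15459, which shares 64.3% of the Hspa8 windows, held 0.766% to 1.51% of the joint reads in first-kit libraries and 13.7% to 20.4% in second-kit libraries. With its reads added to Hspa8 the change was 0.11 (limma adjusted p 0.365), a value that crosses kits with different shares of the copy. With the kit as a covariate too it was 0.25, an estimate that rests on cKO library 3 alone. The part of the copy in the Hspa8 difference was not tested.

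**Figure D5:**
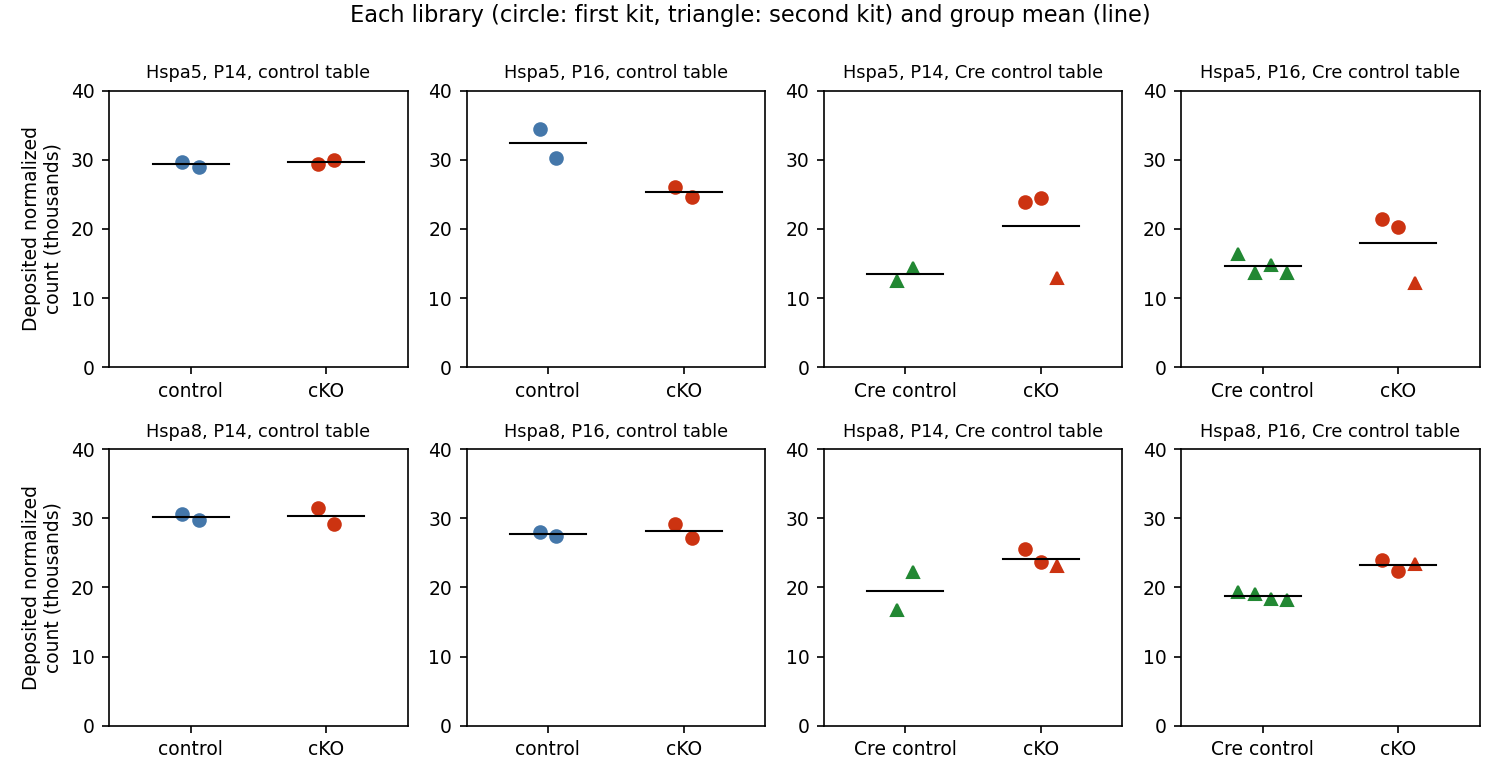
Deposited normalized counts of Hspa5 (top) and Hspa8 (bottom) in each library of the 4 tables, with circles for the first kit, triangles for the second and a line at each group mean. In the P16 control table the Hspa5 points of cKO lie below both controls, and in the Cre control tables the circles and the triangle of cKO lie apart for Hspa5 and together for Hspa8.

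In the second kit the heat-inducible pair was higher in the third cKO library than in each Cre control at both stages. At P16 Hspa1a was 308 against 212 to 281 and Hspa1b 433 against 319 to 392, log2 differences of 0.35 and 0.31. At P14 they were 302 against 202 and 265, and 426 against 347 and 399. This is a single library per stage with no test, and the first-kit values above overlapped. Without cKO library 3, the P16 contrast with Cre controls called Hspa1a (-0.73) and Hspa1b (-0.57) lower and Hsp90aa1 (0.46) higher, across kits. That fit called 9427 of 19046 genes. Hspa9 in library 3 lay below each Cre control, at 7258 against 8064 to 8845 at P16 and 6394 against 6731 and 7141 at P14.

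The partners of the 10 genes were taken from lists of related genes, chosen with earlier results of these data known. In control testis from P14 to P16, 6 of 15 tested HSP40 genes rose and none fell, 5 of 11 chaperonin genes rose and 2 fell, and 3 of 16 genes of the unfolded protein response rose, where 20% of all genes were called in either direction. The largest rises, named after their values were seen, were in Hspb9, a small heat shock protein of testis (5.38, SE 0.57), Cct6b, a testis chaperonin subunit (2.04, SE 0.29), Dnajb13, an axonemal HSP40 (1.89, SE 0.23), and Shcbp1l, a partner of HSPA2 at the meiotic spindle (1.78, SE 0.14).

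At P16 some co-chaperones of HSP70 rose and others fell in cKO, in a comparison that called 38.6% of all genes. Of 15 tested HSP40 genes 3 were higher and 7 lower, with a median log2 change of -0.15. Dnajb11, the HSP40 of the endoplasmic reticulum that works with BiP, fell by 0.63 on the log2 scale, from 4479 ± 164 (SD, n = 2) to 2902 ± 109 (SD, n = 2; limma adjusted p 1.38e-06). Dnaja4 changed by -0.44, Dnajb14, a membrane HSP40 of the same organelle, by 0.40, and Dnajb3, a testis HSP40, by 0.35. Of 10 exchange factors 2 were lower, Grpel2 of mitochondria (-0.27) and Hspbp1 (-0.24). Among 9 other family members Hspa12b (0.47), Hspa12a (0.24) and Hspa13 (0.23) were higher and Hspa14 (-0.23) was lower. Hsp90b1, the HSP90 of the endoplasmic reticulum, which also stands in the next list, changed by 0.05 (SE 0.04, limma adjusted p 0.362). In the third cKO library at P16, Dnajb3 (-0.26) and Hspa12a (-0.11) lay below the Cre control mean, within the Cre control range. The other called genes named here had the same sign there as in the first kit. This is a single library with no test.

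Of 16 tested genes of the unfolded protein response, 6 were lower and 1 higher in cKO at P16 and 9 were not called, with a median log2 change of -0.07. The 7 called stand against 38.6% called over all genes. Against Cre controls at P16, 1 of the 16 was called, and 7 lay higher and 9 lower, with a median of -0.02. Creld2, a protein of the endoplasmic reticulum induced by its stress, fell by 0.48 on the log2 scale (SE 0.05, limma adjusted p 1.33e-05). The disulfide isomerases Pdia4 (-0.33) and Pdia6 (-0.28) and the stress sensor Ern1 (-0.30) were lower too. Xbp1, the transcription factor whose RNA the ERN1 protein splices, was the 1 gene of the list that rose (0.26). At P14 0 of 16 were called by limma, and 0 had an unadjusted p under 0.05. In the third cKO library at P16, Creld2 stood -0.70, Pdia6 -0.47 and Dnajb11 -0.39 from the mean of the Cre controls, each below all 4. Pdia4 stood at -0.13, also below all 4, but Ern1, at -0.05, lay within their range. At P14 that library already lay below both Cre controls for Dnajb11 (-0.32) and Creld2 (-0.11), but above both for Pdia6 (0.07).

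The HSP90 co-chaperones were split at P16, with 5 of 18 higher and 4 lower. As for the lists that follow, this count stands against 38.6% called over all genes. Stip1, which hands clients from HSP70 to HSP90, fell by 0.37 (SE 0.04, limma adjusted p 3.15e-05), and the phosphatase Ppp5c changed by -0.32. Cdc37l1, a relative of the kinase co-chaperone, rose by 0.35 and Sugt1 by 0.27. Of 11 chaperonin genes 6 were lower and none higher, with the largest changes in Cct5 (-0.24), Cct2 (-0.21), Cct3 (-0.21) and Cct7 (-0.17). Heat shock factors changed in both directions: Hsf5, a germ cell factor, by 0.36, Hsf2 by -0.28 and Hsf1 by -0.20. Small heat shock proteins did so too, with Hspb9 (-0.78) and Hspb11 (-0.30) lower and Hspb1 (0.35) higher among 8 tested. Of 5 tested genes for HSPA2 partner proteins 3 were higher, Ccnb1 (0.21), Shcbp1l (0.21) and Cdk1 (0.16). The last encodes the kinase that HSPA2 helps to become active. In the third cKO library at P16 the sign was the opposite for Hsf5 (-0.20), Shcbp1l (-0.30) and Hsf2 (0.13), against the Cre control mean. Hsf2 lay above every Cre control, and Hsf5 and Shcbp1l lay within their range. The remaining genes named so far in this paragraph had the same sign as in the first kit. Against Cre controls at P16, in a comparison that crosses the kits and called 9.07% of all genes, 7 genes of these lists were called. They were Ppp5c (-0.75), Hspa13 (0.70), Sugt1 (0.62), Cdc37 (-0.61), Dnaja4 (-0.61), Creld2 (-0.60) and Dnajb14 (0.49).

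The genes most like the spermatocyte forms were ranked by Pearson r of log2 CPM over the 8 first-kit libraries, which share kit and run, among 10725 genes with a mean log2 CPM of at least 3. For Hspa2 these were Zcchc2, Smpd5, Pdha2, Nek2 and Naa25, with r of 0.997 to 0.998, and with r of 0.957 to 0.988 over the 8 second-kit libraries. For Hspa4l they were Cdkl2, Cers3, Ptpdc1, Tcfl5 and Ubxn6, with r of 0.998 to 0.999, and 0.841 to 0.978 in the second kit. Hspa1l, at its few reads, gave Abl1, Tubgcp6, Hectd3, Anapc2 and Med27 at 0.973 to 0.978, but -0.32 to 0.53 in the second kit, so its ranking did not carry over. The points fall in 2 ages, and these values describe the order of the libraries only.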

How the data were processed

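RNA from 16 mouse testis libraries was measured in 4 deposited tables of 55414 genes. Per the submitters' processing notes the tools were Trim Galore, STAR, HTSeq and DESeq2 and the genome build GRCm39. Versions, annotation release and strand setting are not given in the sources used here. The deposited values (unit: signal) are the authors' gene read counts divided by a size factor per library and table. Whole reads were recovered from 100% of values (tolerance 0.05 of a read). The 4 summary rows, 53.4% to 63.0% of reads, were left out. Gene IDs were named from GENCODE M21 (52081 matched). Promoter sequences are from RefSeq, GRCm38.p6, and were searched for 6 of 10 members. Chromosome 18, where Hspa9 lies, was left out of the member search.

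Genotypes were compared within each table by limma 3.58.1 with a mean-variance trend (R 4.3.3) on log2(value + 1), for genes of at least 10 in 2 libraries. Fold changes on this scale understate those of low genes. Stages, and how far the cKO effect differed between them, were compared within a kit on log2 CPM of recovered reads (TMM scaling, prior count 1). Calls are Benjamini-Hochberg adjusted p under 0.05 over all genes tested. Cre control comparisons share cKO libraries with the control comparisons. Replicate libraries differed by more than sampling noise (lowest chi-square per gene 2.36).

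Alternatives were pseudocounts, filters, scaling, edgeR 4.0.16, DESeq2 1.42.0, no trend, kit and replicate terms, and leaving out each library. Adding the Gm15459 reads to Hspa8 was chosen after seeing the data. The tests were tested on simulated data. Named were all members, up to 4 called genes per list by size of change in cKO against control at P16, 1 gene per list called in another comparison of genotypes, and the 5 genes most like each spermatocyte form. Other names were chosen after their values were seen. Members and lists were chosen with earlier results of these data known.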

Additional observations from a re-analysis of the deposited data

Results flagged for a closer look

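Of 104 members and list genes searched, 7 (6.73%) had a cKO effect that differed between P16 and P14 in the test of the difference itself, near the 7.39% called over all genes. Each is given here as the log2 effect at P16 minus that at P14 in the first kit. Among the members this was Hspa5 (-0.36, limma adjusted p 0.0325). Of the other endoplasmic reticulum genes, Dnajb11 (-0.58, limma adjusted p 0.00281), Creld2 (-0.49, limma adjusted p 0.0165) and Pdia6 (-0.28, limma adjusted p 0.0266) differed in the same direction. Stip1, which joins HSP70 to HSP90, differed by -0.30 (limma adjusted p 0.0342). The difference was positive for Dnajb14, also of the endoplasmic reticulum (0.37, limma adjusted p 0.0261), and Cdc37l1 (0.31, limma adjusted p 0.0246). Only Cre control at P16, with 4 libraries, was large enough to be searched for a library far from the others. Of the 10 members, 0 held one there. The control and cKO groups were not searched.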

How the results depend on the processing

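With 2 libraries in most groups the precision is low, and members sharing sequence or with few reads are the least certain. No call of Hspa2 or Hspa4l with age in control or cKO, or of Hspa5 in cKO, was lost under any of 12 alternatives. For cKO against control at P14, the genes called numbered 0 without a filter, 0 without a trend, 6 with DESeq2 and 5 with the replicate block. At P16, 1 member, Hspa5, was called without a filter and over both control types with the kit as a covariate (2701 genes). In the latter fit Hspa2 reversed to -0.044. Without a trend (1806 genes) the 1 member called was Hspa1l (limma adjusted p 0.0383), and the calls of Hspa5 and Hspa2 were lost. Against Cre control at P14, DESeq2 called 5 genes and the replicate block 5 members and 6966 genes. At P16 the genes numbered 3277 with pseudocount 10, 917 without a filter, 4140 with DESeq2, 32 without a trend, 0 with the replicate block and 1 with the kit as a covariate, and 0 members were called without a filter, with edgeR, without a trend, with the block or with the kit. The difference between stages held 0 members without a filter (727 genes) or a trend (135 genes) and 2228 genes with the replicate block. With age and no trend, 2 members and 2166 genes were called in control, 3 members in cKO, and 0 members and 879 genes in Cre controls, where no filter gave 0 members and 49 genes. The causes were not tested. Per kilobase of all exons joined, levels in control at P16 were 278 for Hspa2, 42.1 for Hspa4l, 485 for Hsp90aa1, 295 for Hspa5, 248 for Hspa8, 93.3 for Hspa9 and 483 for Hsp90ab1. Leaving out 1 library gave 0 to 11 genes for control P14, 1 to 2 members and 4591 to 7045 genes for control P16, 0 to 4 and 0 to 6256 for Cre control P14, 0 to 5 and 0 to 9427 for Cre control P16, 0 to 1 and 284 to 3199 for the difference between stages, and with age 2 to 3 and 1640 to 2613 in control, 3 to 5 and 3445 to 5450 in cKO and 0 to 2 and 580 to 2781 in Cre controls. A lone library left in a group was assumed to vary like the other groups. Same-numbered libraries of control and cKO correlated at 0.203 (P14) and 0.0798 (P16) in their deviations, with only 2 pairs, so the numbers were not taken to pair the samples.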
